A study of Danio rerio with 8 samples.

Results

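The proteasome is the barrel-shaped protease that degrades proteins marked with ubiquitin. Its core particle is built of alpha and beta rings, 3 kinds of beta subunit carry the catalytic sites, and regulatory caps of ATPases and other subunits recognise, unfold and feed in the substrate. In immune cells and under interferon, immune-type catalytic subunits take the place of the constitutive ones and the PA28 activator is made, which changes the peptides available for display on MHC class I. The proteasome genes were chosen as the rows of the deposited count table whose symbol begins with psma to psmg followed by a digit, which gave 53 of 14781 rows. Of these, 16 encode constitutive core subunits, 5 immune-type core subunits, 20 subunits of the regulatory cap, 4 the PA28 and PA200 activators, and 7 assembly factors or the inhibitor PI31. The remaining row, psmc3ip, carries a matching symbol but encodes a partner protein of PSMC3 that acts in meiotic recombination in mammals.

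The study sequenced the RNA of tumour cells that had been sorted from zebrafish by their fluorescence, in 2 groups of 4 libraries. The MYCN group held EGFP-positive neuroblastoma cells of MYCN transgenic fish, and the myrAKT group mCherry-positive ganglioneuroma cells of fish transgenic for myristoylated, membrane-bound AKT; both are tumours of the sympathetic nervous system, and ganglioneuroma is the more mature kind. Transgene, tumour type and reporter colour changed together, so their effects cannot be told apart. The labels give no promoter, strain, age or number of fish per library, and p-values therefore measure the spread between these libraries only. Library totals lay between 25948623 and 55827123 counts. Levels are CPM, counts relative to the library total scaled with TMM factors, which ran from 0.747 to 1.04 over the MYCN libraries and up to 1.22 over the myrAKT libraries. After ±, SDs over 4 libraries are given for CPM values and SEs for log2 fold changes, which are myrAKT minus MYCN. CPM values are not per gene length, so levels are compared between libraries and not between genes.

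The sorted populations differed in their content of other cells' transcripts, as far as marker genes show it. All 16 leukocyte markers tested were higher in myrAKT, and their summed level was 489 to 1546 CPM in MYCN and 19704 to 24272 CPM in myrAKT. The most abundant were cd74a, at 6509.9 ± 1234 CPM in myrAKT against 360.2 ± 207 CPM in MYCN, and lyz, at 4281 ± 342 CPM in myrAKT against 44.0 ± 23.9 CPM in MYCN. Of the lymphocyte markers 11 of 12 were higher and 1, rag2, lower, with ikzf1 at 147 ± 30.4 CPM in myrAKT against 2.56 ± 0.626 CPM in MYCN and ccr9a at 106 ± 8.70 CPM in myrAKT against 4.23 ± 1.64 CPM in MYCN; pax5 had no count in any MYCN library. Erythroid markers were higher for 8 of 9 (summed 183 to 296 against 3692 to 8644 CPM), endothelial markers for 14 of 14 (12.2 to 24.4 against 431 to 657 CPM) and kidney tubule markers for 9 of 9 (9.21 to 35.7 against 1232 to 4763 CPM). The defining genes of the labelled lineage were present in all 8 libraries: 14 sympathoadrenal markers summed to 9706 to 11658 CPM in MYCN and 2189 to 4847 CPM in myrAKT. Of these, 11 were lower in myrAKT, 1, chga, was higher and 2 did not pass. The part of these cells in the proteasome values below was not tested. In sorted bulk RNA, fewer cells of a type and less RNA per cell cannot be told apart.

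Setting myrAKT beside MYCN addresses how proteasome genes differ between the sorted ganglioneuroma and neuroblastoma cells. Constitutive catalytic subunits, most assembly chaperones and the nuclear activator gene psme3 were lower in myrAKT, the immune-type subunits psmb8a and psmb10 and the activator genes psme2 and psme4b were higher, and most cap subunits did not pass, all with TMM scaling. Of the 53 rows 51 had enough counts to be tested, and 24 of those passed (edgeR quasi-likelihood test, adjusted p under 0.05), 5 higher and 19 lower in myrAKT; 27 did not pass. Across all 12126 genes tested, 76.0% passed, 37.6% higher and 38.4% lower, so the share of proteasome genes that passed, 47.1%, was below that of the whole table. Their changes were also smaller: 46 of 51 (90.2%) stayed within 2-fold, against 44.2% of all genes. The members' median absolute log2 fold change was 0.42, and that of all genes 1.19. The 5 at or past 2-fold were psme3, psmg1, psmd5 and psmg3, which were lower, and psmc3ip, which was higher. Across all genes 55.2% passed and changed by 2-fold or more, 29.9% higher and 25.2% lower. The ranges of the 2 groups did not overlap for 23 members, with myrAKT above for 4 and below for 19; over all genes the shares were 72.5%, 36.2% and 36.3%.

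The direction depended on how libraries were scaled, and the scalings moved all genes. With TMM the members' median log2 fold change was -0.38 and that of all genes -0.04. With library totals the values were 0.01 and 0.34, and 10 members were higher and 8 lower, where 62.2% of all passing genes were higher against 49.5% with TMM. With libraries scaled on dbh and th, enzymes of catecholamine synthesis in the labelled lineage, the values were 1.16 and 1.45, and 42 members were higher and 0 lower, with 89.0% of all passing genes higher. Relative to the median of all genes the members lay between -0.37 and -0.28 in the 11 fits that used all 8 libraries. With single libraries left out this distance ran from -0.47 without MYCN 1 to -0.14 without MYCN 4. All members together made up 0.426% to 0.635% of a MYCN library's counts and 0.559% to 0.631% of a myrAKT library's, ranges that overlapped. Ratios of 2 genes within a library do not depend on the scaling, and they are given below for 9 pairs. Ratios of other pairs of genes were not computed. How often the groups would be apart for pairs of any genes is therefore not known.

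**Figure D1:**
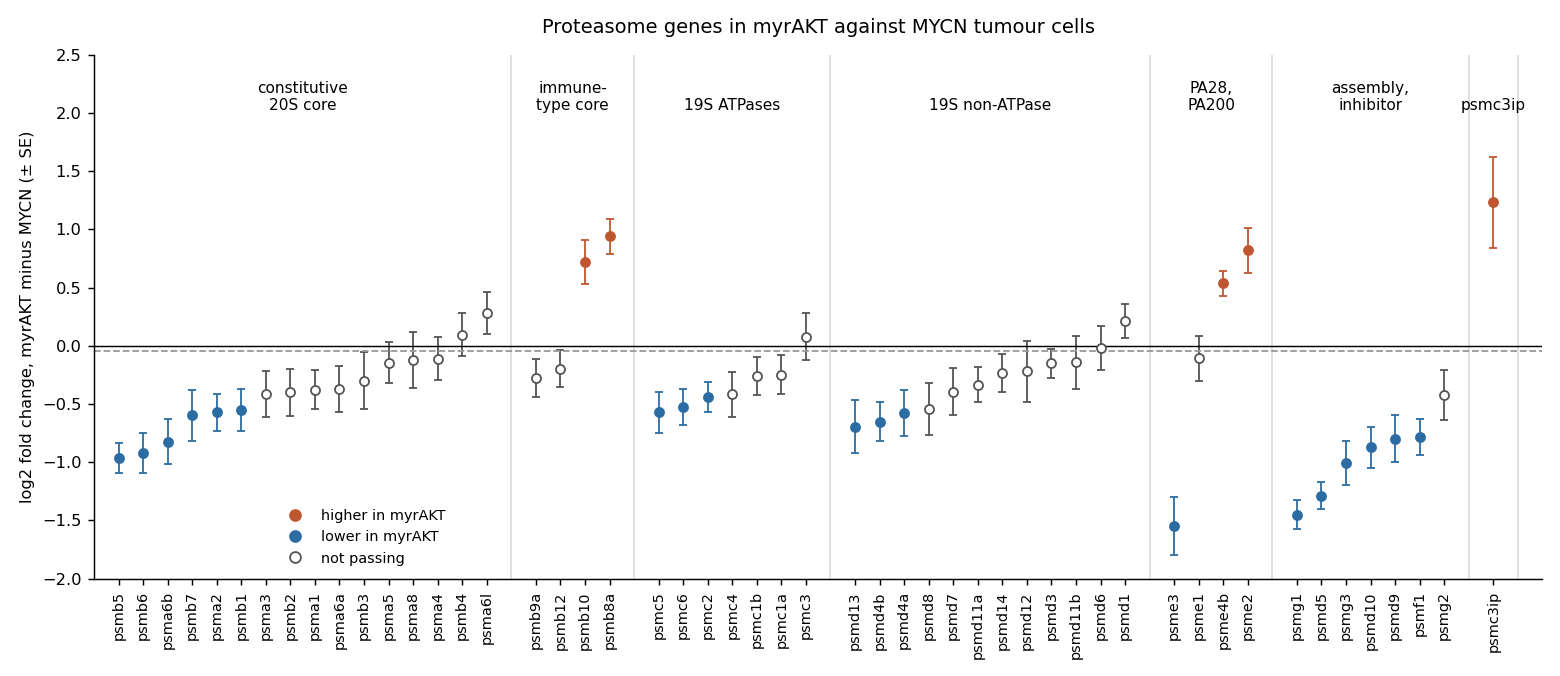
Log2 fold change (myrAKT minus MYCN, with its SE) of each of the 51 tested proteasome genes, grouped by role; filled points passed the test and open points did not, and the dashed line is the median of all tested genes (-0.04). Psme3, psmg1 and psmd5 are the lowest points and psmb8a, psme2 and psmb10 the highest among proteasome parts, while the cap subunits lie between -0.69 and 0.21.

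In the MYCN group 1 library stood apart. MYCN 4 was the highest MYCN library for 49 of 51 tested members, against 38.9% of all tested genes, and the median member was 1.63-fold above the mean of the other MYCN libraries on a log scale. For all tested genes the same median log2 difference was -0.01. By class it was 0.78 for the non-ATPase cap genes, 0.71 for the constitutive core, 0.62 for the ATPases and 0.43 for the immune-type core. MYCN 4 also had the lowest TMM factor and the largest total. As a share of all counts the members stood at 0.426, 0.501, 0.582 and 0.635% in MYCN 1 to 4. The median SD of log2 CPM over the members was 0.36 in MYCN, 0.10 in MYCN 1 to 3 and 0.13 in myrAKT. Without MYCN 4, 8 members were higher and 19 lower in myrAKT. The additional higher calls were psmb4 (0.30), psmc3 (0.31) and psmd1 (0.31). That fit called 80.9% of all 12350 genes tested in it, 4945 higher and 5043 lower, against 76.0% with all libraries. The members' median log2 fold change was then -0.16. Among genes that did not pass, psma4, psma5, psma8 and psmb3 changed sign, to 0.09, 0.03, 0.19 and 0.01. So did psmd6, psmd11b, psmd12 and psme1, to 0.20, 0.15, 0.15 and 0.10.

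In the constitutive core, the catalytic subunits were lower in myrAKT with TMM scaling and most structural subunits did not pass. In all 6 of 16 (37.5%) were lower, a share close to the 38.4% of all tested genes called lower, 0 were higher and 10 did not pass. The median log2 fold change was -0.39, and -0.17 without MYCN 4. By scaling, 3 were lower and 2 higher with library totals and 0 were lower and 13 higher with scaling on dbh and th. Psmb5, which carries the chymotrypsin-like site, was at 195, 199.5, 191 and 253 CPM in MYCN 1 to 4 and 98.9, 104, 112 and 114 CPM in myrAKT 1 to 4. The 4 MYCN libraries lay above the 4 myrAKT libraries without overlap, and the gene averaged 107 ± 6.99 CPM in myrAKT against 209 ± 29.1 CPM in MYCN (SD, n = 4 each; edgeR log2 fold change -0.97 ± 0.13, adjusted p = 6.8e-05). Psmb6, which carries the caspase-like site, was at 108, 124, 117 and 184 CPM in MYCN 1 to 4 and 73.1, 76.2, 68.6 and 63.6 CPM in myrAKT 1 to 4. Its groups were apart as well, although MYCN 4 was far above the other MYCN libraries (edgeR log2 fold change -0.92 ± 0.17, adjusted p = 8.6e-04). Psmb7, which carries the trypsin-like site, was at 91.4, 72.4, 54.9 and 119.8 CPM in MYCN 1 to 4 and 53.1, 51.4, 60.2 and 58.9 CPM in myrAKT 1 to 4. Here MYCN 3 fell inside the myrAKT range, and the change of -0.60 ± 0.22 (edgeR adjusted p = 0.028) did not pass without MYCN 1, MYCN 4, myrAKT 1 or myrAKT 2 (adjusted p = 0.057, 0.051, 0.064 and 0.066); without MYCN 4 it was -0.39.

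The other beta subunits, psmb1 to psmb4, build the ring without cutting. Psmb1 was lower, at 131 ± 10.9 CPM in myrAKT against 192 ± 53.3 CPM in MYCN (edgeR log2 fold change -0.55 ± 0.18, adjusted p = 0.018), but not without myrAKT 4 (adjusted p = 0.052), and the change was -0.35 without MYCN 4. Psmb2 (108 ± 9.68 CPM in myrAKT against 142 ± 45.2 CPM in MYCN), psmb3 (128 ± 9.90 CPM in myrAKT against 157 ± 64.4 CPM in MYCN) and psmb4 (176 ± 18.97 CPM in myrAKT against 165 ± 45.3 CPM in MYCN) did not pass. The alpha subunits form the gated outer rings. Of 9 alpha genes psma2 and psma6b fell, and the log2 fold changes of the 9 ran from -0.83 for psma6b to 0.28 for psma6l. Psma1, psma3, psma4 and psma5 did not pass, with log2 fold changes of -0.38, -0.41, -0.11 and -0.14. Psma8, for which RefSeq lists psma7 as an older name, averaged 216 ± 24.3 CPM in myrAKT against 235 ± 94.3 CPM in MYCN and did not pass (edgeR adjusted p = 0.655). With MYCN 1 left out, psma1, psma3, psma6a and psmb2 were called lower as well (edgeR adjusted p = 0.040, 0.039, 0.045 and 0.048). Psma2, an older name of psma2a in RefSeq, was at 119.7, 114, 110.3 and 158 CPM in MYCN 1 to 4 and 88.5, 99.2, 75.1 and 74.1 CPM in myrAKT 1 to 4. Its 4 myrAKT values were all below the 4 MYCN values (edgeR log2 fold change -0.57 ± 0.15, adjusted p = 0.0071).

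Summed, the constitutive core made up 0.201 ± 0.0357% of the counts of a MYCN library and 0.204 ± 0.0105% of those of a myrAKT library. On the TMM scale the sums averaged 2321 ± 635 CPM for MYCN and 1789.5 ± 155 CPM for myrAKT, with MYCN 4 at 3270.3 CPM and the other MYCN libraries at 1928 to 2047 CPM. With libraries scaled on this sum instead, psmb5 (-0.61, edgeR adjusted p = 0.0051), psmb6 (-0.55, 0.0016) and psma6b (-0.44, 0.0092) were lower. Psmb4 (0.47, edgeR adjusted p = 0.0034) and psma6l (0.62, 0.0084) were higher on that scale, where the median log2 fold change of all genes was 0.28. The proportions of these core genes to the core's sum thus differed between the groups.

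**Figure D2:**
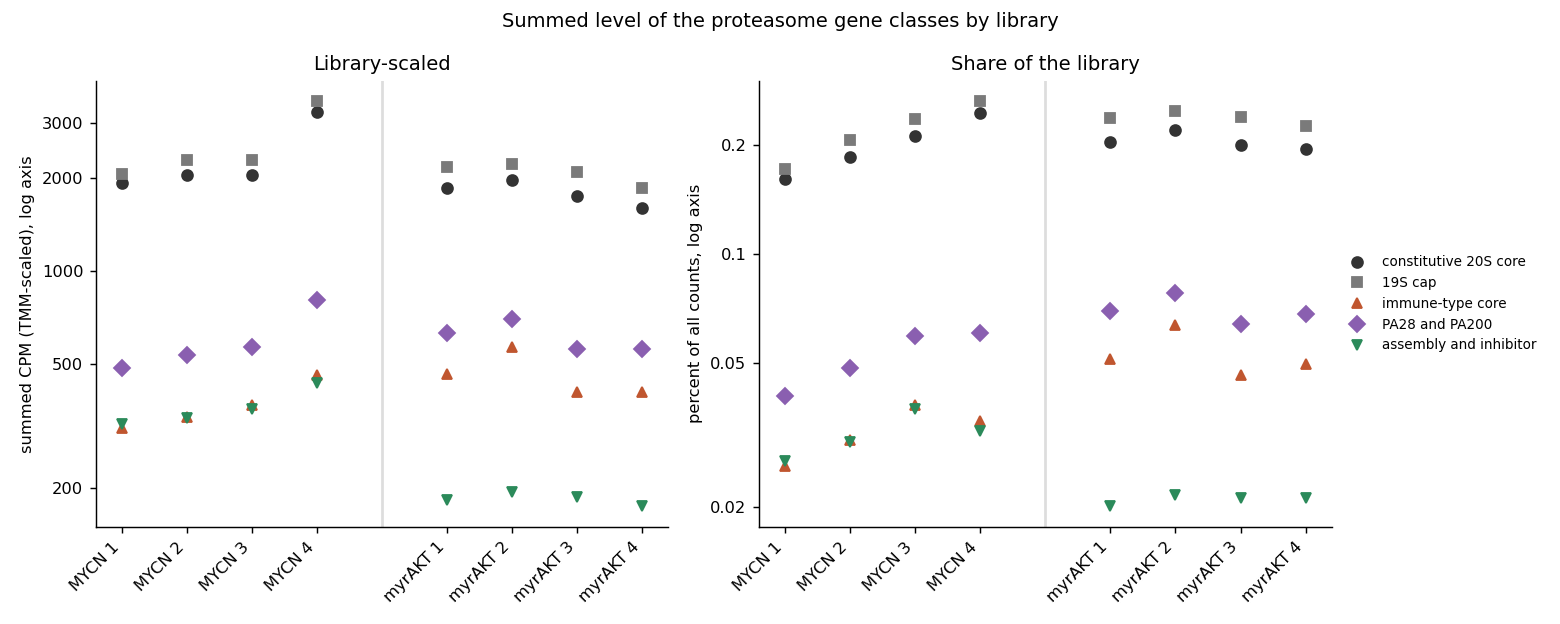
Summed level of 5 classes of proteasome genes in each library, as TMM-scaled CPM (left) and as percent of all counts (right), both on log axes; each point is 1 library. MYCN 4 has the highest constitutive core and cap sums on both scales, and the assembly class is lower in each myrAKT library than in each MYCN library on both.

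The immune-type core held the subunits with the largest increases of the core. Of 4 members tested psmb8a and psmb10 (50%) rose, where 37.6% of all tested genes were called higher. Psmb9a and psmb12 did not pass, and none fell. Psmb8a and psmb10 were also called higher with each single library left out. The other scalings moved all genes upward. With scaling on dbh and th all 4 were called higher, where the median log2 fold change of all genes was 1.45. With library totals and with scaling on the constitutive core only psmb8a and psmb10 were, where the medians of all genes were 0.34 and 0.28. Psmb8a, the immune-type partner of psmb5, was at 69.5, 65.2, 73.5 and 89.2 CPM in MYCN 1 to 4 and 143, 176, 125 and 127 CPM in myrAKT 1 to 4. Every myrAKT library was above every MYCN library, and the averages were 143 ± 23.3 CPM in myrAKT against 74.4 ± 10.5 CPM in MYCN (edgeR log2 fold change 0.94 ± 0.15, adjusted p = 3.0e-04). Psmb10, the immune-type partner of psmb7, was at 65.6, 78.9, 90.1 and 115 CPM in MYCN 1 to 4 and 144, 179, 124 and 128 CPM in myrAKT 1 to 4. The lowest myrAKT library exceeded the highest MYCN library by a small margin (edgeR log2 fold change 0.72 ± 0.19, adjusted p = 0.0064). Psmb9a, the immune-type partner of psmb6, was at 102, 112, 114 and 148 CPM in MYCN 1 to 4 and 98.5, 123, 86.3 and 85.1 CPM in myrAKT 1 to 4. The groups overlapped, and the change of -0.28 ± 0.16 did not pass (edgeR adjusted p = 0.144), though it did, as lower, without myrAKT 2 (adjusted p = 0.043). Psmb12, an immune-type beta gene that RefSeq also names beta1t, was at 73.3, 81.7, 91.4 and 110.2 CPM in MYCN 1 to 4 and 79.6, 93.0, 69.9 and 68.1 CPM in myrAKT 1 to 4, and its groups overlapped too (edgeR log2 fold change -0.20 ± 0.16, adjusted p = 0.275). Psmb11b had between 0 and 11 counts per library and was not tested; its mammalian relative is the catalytic subunit of the thymus.

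In the RefSeq table of assembly GRCz12tu, psmb13a, psmb8a, psmb12 and psmb9a stand next to one another in this order, between the class I gene mhc1uba and the peptide transporter gene tap2a, while psmb10 lies elsewhere. Psmb8a rose while its neighbours psmb12 and psmb9a did not pass; the difference between their changes was not tested. Psmb13a and tap2a were not analysed here. Mhc1uba was at 30.4 ± 5.06 CPM in myrAKT against 24.98 ± 20.8 CPM in MYCN and did not pass (edgeR adjusted p = 0.575), and mhc1uka, a class I gene of the same neighbourhood, rose to 128 ± 34.9 CPM in myrAKT against 69.98 ± 5.18 CPM in MYCN (edgeR log2 fold change 0.87 ± 0.18, adjusted p = 0.0017). RefSeq gives psmb10 and psmb12 as older names of psmb13a as well, and the table does not settle which gene those rows counted.

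Set against its constitutive partner within each library, each of the 3 immune-type catalytic genes took a larger part in myrAKT. The count ratio of psmb8a to psmb5 was 0.357, 0.327, 0.385 and 0.353 in MYCN 1 to 4 and 1.44, 1.69, 1.12 and 1.11 in myrAKT 1 to 4. It differed by 3.72-fold, a log2 difference of 1.89 ± 0.16 (SE; exact two-sided permutation p = 0.0286, adjusted p = 0.0429); this p is the smallest that 4 against 4 libraries allow, and the adjustment is over the 9 pairs. The ratio of psmb10 to psmb7 was 0.718, 1.09, 1.64 and 0.959 in MYCN 1 to 4 and 2.71, 3.47, 2.06 and 2.18 in myrAKT 1 to 4, a log2 difference of 1.27 ± 0.30 (SE; exact two-sided permutation p = 0.0286, adjusted p = 0.0429). The MYCN values spread more than 2-fold here, yet the highest, in MYCN 3, was below the lowest of myrAKT. The ratio of psmb9a to psmb6 was 0.948, 0.905, 0.979 and 0.800 in MYCN 1 to 4 and 1.35, 1.61, 1.26 and 1.34 in myrAKT 1 to 4, a log2 difference of 0.61 ± 0.10 (SE; exact two-sided permutation p = 0.0286, adjusted p = 0.0429). This last difference came with a lower psmb6 and no passing change of psmb9a. Of the counts of the 6 genes together, the immune-type 3 held 37.6% to 43.4% in MYCN and 58.2% to 67.3% in myrAKT, in counts that are not per length.

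Markers of leukocytes, lymphocytes and the other cell types above moved with these ratios between the groups, and their part in them was not tested. Over myrAKT 1 to 4 the summed leukocyte markers were at 24272, 23910.3, 20528 and 19704 CPM and the lymphocyte markers at 681, 697, 482 and 452 CPM. MyrAKT 1 and 2, the libraries with more of both, also had the higher ratios of psmb8a to psmb5. Erythroid sums divided the same way, at 8644, 7424, 3692 and 4147 CPM, whereas sympathoadrenal sums were lower in myrAKT 1 and 2, at 2189, 3042, 4015 and 4847 CPM. Endothelial sums, at 454, 431, 657 and 598 CPM, and kidney tubule sums, at 2945, 1232, 4763 and 3725 CPM, were lower in myrAKT 1 and 2 as well. Over MYCN 1 to 4 the leukocyte sums were 489, 708, 899 and 1546 CPM. MYCN 4, with the most, had a psmb8a to psmb5 ratio inside the range of the other MYCN libraries. Both genes of that ratio had their highest MYCN value there, at 89.2 CPM for psmb8a and 253 CPM for psmb5, as MYCN 4 was highest for 49 of 51 tested members. Psmb10 and psme2 rose over MYCN 1 to 4 in the order of these sums, and so did psmb9a, psmb12 and psma3, which did not pass. This order was not particular to them. Psmg1, psmd5, psmd10, psme3 and psmc5, lower in myrAKT with TMM scaling, rose in it too, as did further members. The share of all genes with this order was not counted. The leukocyte markers' median log2 fold change was 4.62, against 0.94 for psmb8a.

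**Figure D3:**
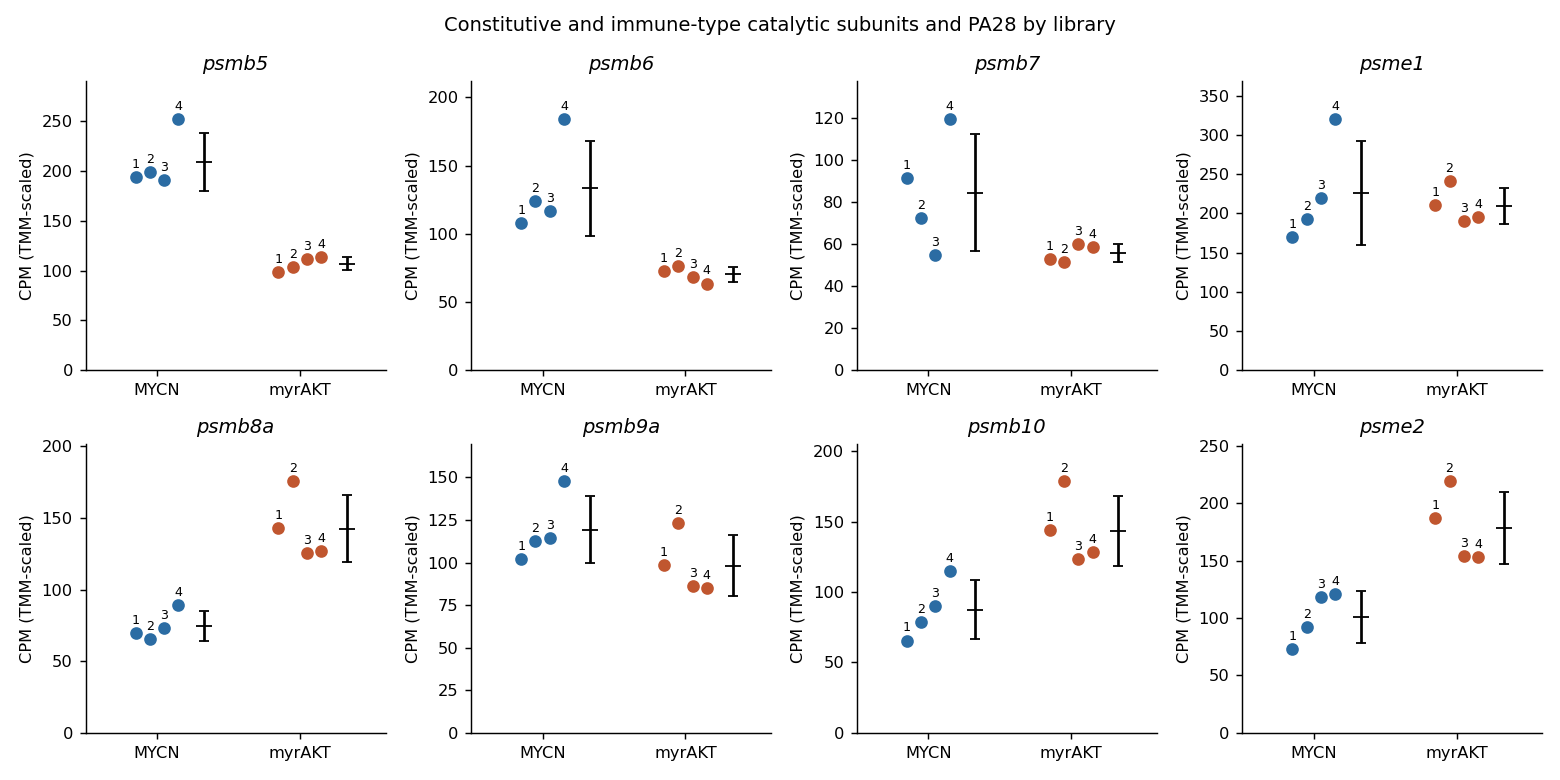
TMM-scaled CPM of the constitutive catalytic genes (psmb5, psmb6, psmb7), their immune-type partners (psmb8a, psmb9a, psmb10) and the PA28 genes psme1 and psme2; each point is 1 library with its replicate number, and bars give the mean and SD of 4. Psmb8a, psmb10 and psme2 have all myrAKT points above all MYCN points, psmb5 and psmb6 the reverse, and psmb7, psmb9a and psme1 overlap.

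The alternative activators diverged. PA28 made of the psme1 and psme2 products binds the core in the cytoplasm and is induced by interferon gamma in mammals, the psme3 product forms a nuclear PA28, and psme4 genes encode PA200. Psme2 was at 73.1, 91.8, 119 and 121 CPM in MYCN 1 to 4 and 187, 219, 154 and 153 CPM in myrAKT 1 to 4. All myrAKT libraries exceeded all MYCN libraries (edgeR log2 fold change 0.82 ± 0.19, adjusted p = 0.0031). Psme1, which encodes its partner subunit, was at 169, 193, 219.5 and 320.5 CPM in MYCN 1 to 4 and 211, 241, 191 and 195 CPM in myrAKT 1 to 4. Those ranges overlapped, and the gene did not pass (edgeR log2 fold change -0.11 ± 0.20, adjusted p = 0.630). The ratio of psme2 to psme1 was 0.431, 0.476, 0.540 and 0.376 in MYCN 1 to 4 and 0.887, 0.908, 0.809 and 0.786 in myrAKT 1 to 4, a log2 difference of 0.90 ± 0.12 (SE; exact two-sided permutation p = 0.0286, adjusted p = 0.0429). The 2 genes of this activator thus changed unequally.

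Psme3 was at 119.7, 122, 124 and 252 CPM in MYCN 1 to 4 and 54.9, 57.7, 50.05 and 48.2 CPM in myrAKT 1 to 4. With TMM scaling and all 8 libraries it had the largest decrease of the tested members, to 52.7 ± 4.36 CPM in myrAKT against 154 ± 64.9 CPM in MYCN (edgeR log2 fold change -1.55 ± 0.25, adjusted p = 2.8e-04), and MYCN 4 stood far above the other MYCN libraries. Without MYCN 4 the log2 fold change was -1.22 (edgeR adjusted p = 3.9e-06), behind psmg1 at -1.37 and psmd5 at -1.26. With scaling on dbh and th psme3 did not pass (-0.01). The ratio of psme1 to psme3 was 1.42, 1.59, 1.77 and 1.27 in MYCN 1 to 4 and 3.84, 4.18, 3.81 and 4.04 in myrAKT 1 to 4, a log2 difference of 1.40 ± 0.11 (SE; exact two-sided permutation p = 0.0286, adjusted p = 0.0429). Psme4b was at 125, 129, 109 and 115 CPM in MYCN 1 to 4 and 180.3, 181, 167 and 163 CPM in myrAKT 1 to 4. The libraries of each group lay close together, the groups were apart, and the gene rose (edgeR log2 fold change 0.54 ± 0.11, adjusted p = 0.0011).

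The regulatory cap showed small differences. With TMM scaling 6 of 19 tested subunits (31.6%) fell, a share below the 38.4% of all tested genes called lower, 0 rose and 13 did not pass. The median log2 fold change was -0.34, and -0.15 without MYCN 4. This direction turned with the scaling. With library totals 3 were higher and 0 lower, and with scaling on dbh and th 19 higher and 0 lower. When libraries were scaled on the constitutive core 3 were higher and 0 lower. In these fits 5507, 8319 and 5067 of all 12126 tested genes were higher and 3348, 1026 and 3258 lower. The cap counts also moved with single libraries, at 2 higher and 7 lower without MYCN 4 and 10 lower without MYCN 1. In the latter fit psmc4, psmd11a, psmd7 and psmd8 passed in addition (edgeR adjusted p = 0.048, 0.033, 0.045 and 0.022). Of all tested genes 80.9% passed without MYCN 4 and 73.9% without MYCN 1. Of the 7 ATPase genes, which unfold the substrate, psmc2, psmc5 and psmc6 fell and the others, psmc1a, psmc1b, psmc3 and psmc4, did not pass. Psmc5 was at 174, 184, 195 and 299.9 CPM in MYCN 1 to 4 and 142, 154, 145 and 133 CPM in myrAKT 1 to 4. MYCN 4 was far above the other MYCN libraries, and the groups did not overlap (edgeR log2 fold change -0.57 ± 0.18, adjusted p = 0.014; -0.37 without MYCN 4). Psmc6 was at 122, 134, 138 and 189.6 CPM in MYCN 1 to 4 and 103, 109, 102 and 90.4 CPM in myrAKT 1 to 4, again without overlap (edgeR log2 fold change -0.53 ± 0.15, adjusted p = 0.010). Psmc2 averaged 112 ± 7.03 CPM in myrAKT against 152 ± 23.9 CPM in MYCN (edgeR log2 fold change -0.44 ± 0.13, adjusted p = 0.012). Psmc4 did not pass (edgeR adjusted p = 0.077) although its groups were apart.

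Of the 12 other cap genes tested, psmd13, psmd4a and psmd4b fell and 9 did not pass. Psmd13, a lid subunit, was at 121, 128, 133 and 248 CPM in MYCN 1 to 4 and 99.2, 107, 96.6 and 87.1 CPM in myrAKT 1 to 4. MYCN 4 was far above the other MYCN values, and the myrAKT libraries were below all of them (edgeR log2 fold change -0.69 ± 0.23, adjusted p = 0.019; -0.40 without MYCN 4). Psmd4a and psmd4b encode copies of a ubiquitin receptor of the cap. Psmd4b was at 83.2, 90.8, 86.0 and 137 CPM in MYCN 1 to 4 and 62.5, 63.9, 67.0 and 58.5 CPM in myrAKT 1 to 4 (edgeR log2 fold change -0.65 ± 0.17, adjusted p = 0.0053). Psmd4a was at 64.5, 69.3, 69.5 and 118 CPM in MYCN 1 to 4 and 57.8, 58.6, 51.4 and 47.6 CPM in myrAKT 1 to 4 (edgeR log2 fold change -0.58 ± 0.20, adjusted p = 0.024; -0.34 without MYCN 4). For both copies the myrAKT libraries were below the MYCN libraries, but psmd4a did not pass without myrAKT 3 or without myrAKT 4 (adjusted p = 0.058 and 0.064), nor psmd13 without myrAKT 4 (edgeR adjusted p = 0.051). Psmd8, a lid subunit, did not pass (edgeR log2 fold change -0.54 ± 0.23, adjusted p = 0.051), but did without MYCN 1, MYCN 2 or MYCN 4 (log2 fold change -0.68, -0.65 and -0.25, adjusted p = 0.022, 0.038 and 0.035). The lid genes psmd3, psmd6, psmd7 and psmd12 did not pass, with log2 fold changes of -0.15, -0.02, -0.40 and -0.22. Psmd1, a large scaffold subunit, averaged 279.8 ± 32.1 CPM in myrAKT against 242 ± 40.0 CPM in MYCN without passing, but with libraries scaled on the constitutive core psmd1 (0.55), psmc3 (0.46) and psmd6 (0.36) were higher (edgeR adjusted p = 0.0041, 0.0045 and 0.017). With that scaling the median log2 fold change of all genes was 0.28. Psmd14, which cuts ubiquitin chains off the substrate, did not pass with TMM scaling, at 86.7 ± 6.23 CPM in myrAKT against 102 ± 23.8 CPM in MYCN. Psmd2, which encodes the other large scaffold subunit, is listed at 0 in all 8 libraries and was not tested.

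With TMM scaling most genes of the class of assembly factors and the inhibitor PI31 were lower in myrAKT. The count was 6 of 7 lower and 0 higher, and 1, psmg2, did not pass, where 38.4% of all tested genes were called lower. With library totals 4 were lower and with scaling on the constitutive core 5, where 3348 and 3258 of all 12126 tested genes were lower. With scaling on dbh and th, however, 0 were lower and 2 higher. The psmg genes encode chaperones that pair alpha subunits and guide the ring, and psmd5, psmd9 and psmd10 encode chaperones of the ATPase ring that leave the finished cap. Psmg1 was at 76.2, 86.0, 91.0 and 105 CPM in MYCN 1 to 4 and 32.6, 34.7, 32.6 and 31.3 CPM in myrAKT 1 to 4. The myrAKT libraries lay close together and far below the MYCN libraries (edgeR log2 fold change -1.45 ± 0.13, adjusted p = 4.1e-06). Psmd5 was at 48.2, 53.8, 54.8 and 57.3 CPM in MYCN 1 to 4 and 20.7, 23.5, 23.8 and 19.7 CPM in myrAKT 1 to 4. This gene too was separated in every library (edgeR log2 fold change -1.29 ± 0.12, adjusted p = 6.5e-06). Both passed with every single library left out. Psmg3 averaged 26.6 ± 2.31 CPM in myrAKT against 53.4 ± 15.2 CPM in MYCN (edgeR log2 fold change -1.01 ± 0.19, adjusted p = 8.1e-04). Psmg2, whose product pairs with that of psmg1, was at 41.4, 38.1, 38.7 and 72.7 CPM in MYCN 1 to 4 and 38.6, 37.6, 35.1 and 31.5 CPM in myrAKT 1 to 4. Only MYCN 4 was clear of the other 7 libraries for it, and the change did not pass (edgeR log2 fold change -0.42 ± 0.21, adjusted p = 0.101).

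Among the other members of this class psmd10, the chaperone also known as gankyrin, averaged 18.1 ± 2.1 CPM in myrAKT against 33.1 ± 7.31 CPM in MYCN (edgeR log2 fold change -0.87 ± 0.18, adjusted p = 0.0013), and psmd9 averaged 15.3 ± 1.15 CPM in myrAKT against 26.5 ± 8.0 CPM in MYCN (edgeR log2 fold change -0.80 ± 0.20, adjusted p = 0.0044). Psmf1, which encodes PI31, a protein that binds and in vitro inhibits the core, was at 60.0, 61.0, 69.5 and 42.6 CPM in MYCN 1 to 4 and 30.9, 36.8, 34.5 and 33.1 CPM in myrAKT 1 to 4. It fell (edgeR log2 fold change -0.78 ± 0.16, adjusted p = 0.0012), and it was the only tested member whose lowest MYCN value was that of MYCN 4. The summed class made up 0.0268% to 0.0372% of a MYCN library's counts and 0.0201% to 0.0216% of a myrAKT library's. Those ranges did not overlap, unlike the shares of the constitutive core. Pomp, the chaperone that matures the beta ring and carries a symbol outside the rule, was at 100.1 ± 5.75 CPM in myrAKT against 109 ± 38.2 CPM in MYCN and did not pass (edgeR log2 fold change -0.12 ± 0.21, adjusted p = 0.631).

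For 4 subunits, both gene copies of a pair named a and b were rows of the table, and their counts may share reads, since the handling of reads that match both is not given in the sources used here. Psma6a was at 48.6, 56.6, 58.7 and 91.6 CPM in MYCN 1 to 4 and 50.3, 56.8, 47.0 and 43.3 CPM in myrAKT 1 to 4, and it did not pass (edgeR log2 fold change -0.37 ± 0.20, adjusted p = 0.111). Psma6b was at 55.5, 59.1, 61.4 and 101 CPM in MYCN 1 to 4 and 39.1, 41.0, 39.3 and 37.2 CPM in myrAKT 1 to 4. The myrAKT libraries were below every MYCN library for psma6b (edgeR log2 fold change -0.83 ± 0.19, adjusted p = 0.0031) and overlapped with them for psma6a. The ratio of psma6b to psma6a was 1.14, 1.04, 1.05 and 1.11 in MYCN 1 to 4 and 0.777, 0.722, 0.838 and 0.860 in myrAKT 1 to 4. RefSeq gives psma6b as an older name of psma6l too, but psma6l has a row of its own here, which did not pass. How reads were divided between psma6b and psma6l was not tested, and the comparison with psma6a is of the rows as listed. The psma6b row took the larger count in each MYCN library and the smaller in each myrAKT library, a log2 difference of -0.44 ± 0.07 (SE; exact two-sided permutation p = 0.0286, adjusted p = 0.0429). Psmc1a and psmc1b encode 1 ATPase of the cap, and neither passed. Psmc1a was at 108, 120.4, 116 and 172 CPM in MYCN 1 to 4 and 114, 122, 108 and 89.8 CPM in myrAKT 1 to 4. Psmc1b was at 67.9, 74.3, 73.9 and 111 CPM in MYCN 1 to 4 and 71.2, 71.4, 69.5 and 61.4 CPM in myrAKT 1 to 4. MYCN 4 was highest for both, and the groups overlapped. The ratio of psmc1b to psmc1a was 0.631, 0.617, 0.637 and 0.646 in MYCN 1 to 4 and 0.627, 0.584, 0.643 and 0.683 in myrAKT 1 to 4, a log2 difference of 0.00 ± 0.05 (SE; exact two-sided permutation p = 0.971, adjusted p = 0.971). That of psmd4b to psmd4a was 1.29, 1.31, 1.24 and 1.16 in MYCN 1 to 4 and 1.08, 1.09, 1.30 and 1.23 in myrAKT 1 to 4, a log2 difference of -0.09 ± 0.08 (SE; exact two-sided permutation p = 0.257, adjusted p = 0.289). For these 2 pairs the groups overlapped and a difference was not detectable beyond the SEs given. Psmd11a and psmd11b encode a lid subunit, and neither passed. Psmd11a was at 80.9, 91.0, 91.1 and 124 CPM in MYCN 1 to 4 and 82.2, 82.0, 75.02 and 67.4 CPM in myrAKT 1 to 4. Psmd11b was at 52.3, 61.6, 60.1 and 112 CPM in MYCN 1 to 4 and 66.8, 69.5, 64.9 and 58.1 CPM in myrAKT 1 to 4. The groups overlapped for both. The ratio of psmd11b to psmd11a was 0.646, 0.677, 0.659 and 0.905 in MYCN 1 to 4 and 0.812, 0.848, 0.866 and 0.862 in myrAKT 1 to 4, a log2 difference of 0.24 ± 0.12 (SE; exact two-sided permutation p = 0.143, adjusted p = 0.184). In MYCN only the value of MYCN 4 reached the myrAKT values, which it exceeded, and without it the log2 difference was 0.36 (exact two-sided permutation p = 0.0286). This p is not adjusted and is the smallest that 3 against 4 libraries allow. It follows from leaving out the only overlapping MYCN library.

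**Figure D4:**
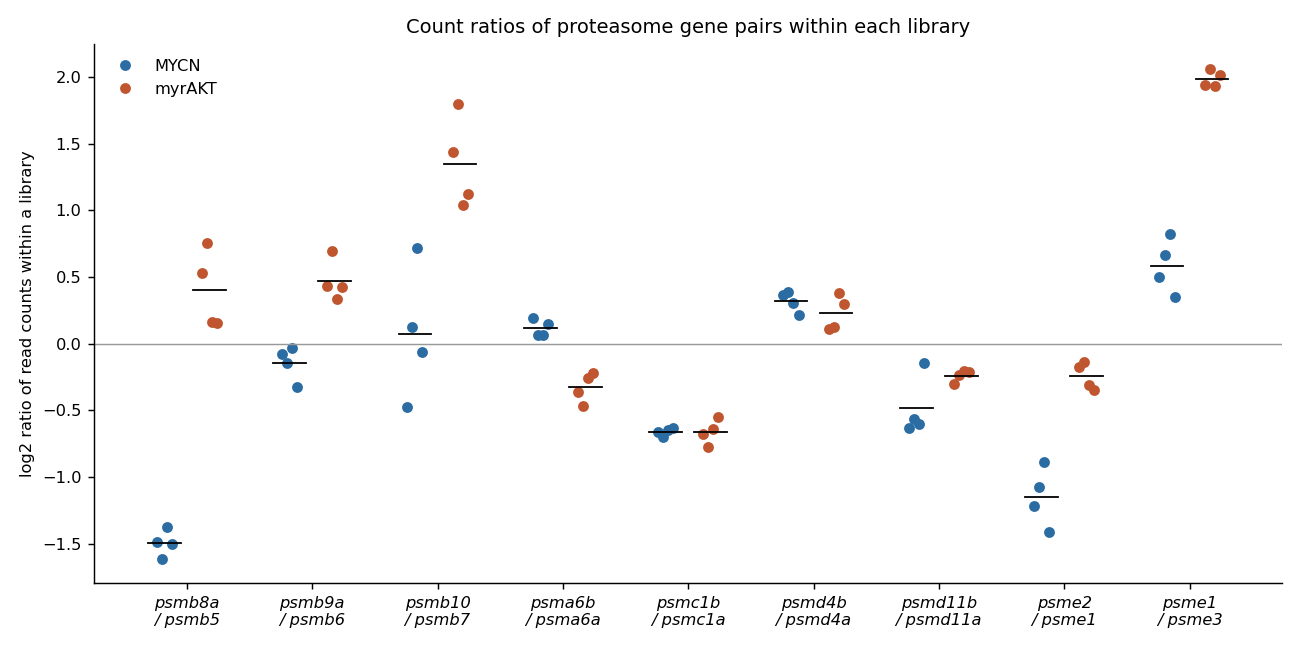
Log2 ratio of the read counts of 2 proteasome genes within each library for 9 pairs; points are libraries and lines are group means of 4. The groups are apart for the 3 immune-type over constitutive pairs, psma6b over psma6a, psme2 over psme1 and psme1 over psme3, and overlap for psmc1b over psmc1a, psmd4b over psmd4a and psmd11b over psmd11a.

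Genes around the proteasome were read from listed symbols, beside the 37.6% of all tested genes called higher and 38.4% called lower. Of 16 proteasome-associated factors 9 fell, 2 rose and 5 did not pass. Usp14, a deubiquitinase bound to the cap, fell to 78.5 ± 4.24 CPM in myrAKT against 179.8 ± 45.7 CPM in MYCN (edgeR log2 fold change -1.20 ± 0.17, adjusted p = 1.2e-04), and rad23ab, a shuttle for ubiquitinated proteins, fell by 1.05 on the log2 scale. Ube3c, a ubiquitin ligase of stalled substrates, rose by 0.46 and ddi2, a protease that activates NRF1 in mammals, by 0.30. Among genes that work upstream of the proteasome, syvn1, a ligase of the endoplasmic reticulum, rose by 1.04 and ufd1l, a cofactor of the segregase vcp, fell by 0.77 on the log2 scale.

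In mammals NRF1, the product of NFE2L1, raises proteasome genes when the proteasome is impaired, and the related NRF2 is held in check by KEAP1. Of its 2 zebrafish genes, nfe2l1a was lower, at 4.93 ± 1.35 CPM in myrAKT against 36.0 ± 4.30 CPM in MYCN (edgeR log2 fold change -2.88 ± 0.21, adjusted p = 1.6e-06), and nfe2l1b did not pass, at 44.3 ± 8.69 CPM in myrAKT against 37.2 ± 6.14 CPM in MYCN. Nfe2l3, a further relative, fell by 0.93 on the log2 scale. Nfe2l2a rose to 233 ± 15.8 CPM in myrAKT against 40.9 ± 5.59 CPM in MYCN (edgeR log2 fold change 2.51 ± 0.13, adjusted p = 2.5e-07), and keap1a rose by 3.29. The list had 8 of 14 higher, 2 lower and 4 not passing.

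Genes of interferon signalling and of class I loading were also mixed. The list had 10 of 25 higher, 4 lower and 11 not passing. The interferon-activated factors stat1a and stat1b fell, to 148 ± 5.76 CPM in myrAKT against 317 ± 99.9 CPM in MYCN (edgeR log2 fold change -1.10 ± 0.23, adjusted p = 0.0016) and to 74.4 ± 13.2 CPM in myrAKT against 187 ± 85.1 CPM in MYCN (edgeR log2 fold change -1.33 ± 0.34, adjusted p = 0.0052). MYCN 4 was far below the other MYCN libraries for both, at 173 CPM for stat1a and 73.6 CPM for stat1b. For stat1b that value fell inside the myrAKT range of 61.2 to 92.8 CPM. Irf1b, a transcription factor induced by interferon, rose to 199 ± 56.6 CPM in myrAKT against 88.3 ± 16.0 CPM in MYCN (edgeR log2 fold change 1.18 ± 0.21, adjusted p = 6.7e-04), while irf1a was at 1.14 ± 0.549 CPM in myrAKT against 0.602 ± 0.381 CPM in MYCN and did not pass. Irf8, a factor of myeloid cells and B cells, rose by 3.43 and the kinase jak1, which relays cytokine signals, by 2.45 on the log2 scale. B2m, the light chain of class I, did not pass, at 1744 ± 205 CPM in myrAKT against 1419 ± 486 CPM in MYCN. In these same libraries the leukocyte markers were higher in myrAKT, as given above.

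Psmc3ip, which matches the symbol rule without being part of the proteasome, was low in every library. It was at 1.74, 1.34, 1.38 and 4.20 CPM in MYCN 1 to 4 and 6.05, 6.35, 3.41 and 4.69 CPM in myrAKT 1 to 4. MYCN 4 fell inside the myrAKT range, and the gene passed as higher (edgeR log2 fold change 1.23 ± 0.39, adjusted p = 0.015; log2 fold change 1.77 without MYCN 4).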

How the data were processed

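Counts per gene symbol were deposited by the authors as 1 table of raw whole-number read counts, with 1 column for each of the 8 libraries. The submitters' processing notes name the build GRCz10, TopHat2 2.1.1 as a read mapper, HTSeq 0.6.1 for counting, edgeR, Trim Galore 0.4.4 for trimming, SAMtools 1.5 and, for quality, FastQC 0.11.5. Not given in the sources used here are the annotation, the strand setting and the handling of reads matching several genes, so counts of gene copies and overlapping genes are uncertain. The labels name both polyA RNA and depletion of ribosomal RNA. Replicates within a group differed beyond sampling noise in all 12 pairs (chi-square per degree of freedom 21.2 to 286).

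From the counts, myrAKT was compared with MYCN over the whole table with edgeR 4.0.16 in R 4.3.3 (filterByExpr, TMM factors, robust quasi-likelihood F test without the legacy option, two-sided, Benjamini-Hochberg adjustment over 12126 genes, threshold 0.05). The SE of a fold change was derived from its F statistic. Log2 ratios of 2 genes within a library used a pseudocount of 0.5 and an exact two-sided permutation test, adjusted over 9 pairs. On simulated data the edgeR fit recovered 64 of 100 changes of 2-fold and 99 of 100 of 4-fold, and it called 9 unchanged genes. All other genes were left unchanged in that simulation, whereas 76.0% passed in the data, so these rates need not carry over. Smaller changes were not simulated, and the permutation test was not tested on simulated data. Alternatives were other scalings and filters, DESeq2 1.42.0, limma-voom 3.58.1, a replicate block and leaving out each library. Of the 53 symbols 52 are current in RefSeq (GRCz12tu) and 1 is an older name. RefSeq lists 59 symbols of this pattern, of which 52 are rows. Psma2b, psmb11a, psmb13a, psme3ip1, psme4a and psmg4 are not, so the classes are not complete sets. Of 187 listed symbols of related genes and markers 147 are rows, and those not found, such as tap1 and nlrc5, were not analysed here. Members, lists and pairs were chosen with earlier results of these data known. Values in every library are given for immune-type members, paired genes and the largest passing changes of each class. Of the lists, for each pathway the smallest adjusted p in each direction and for each cell type the most abundant genes are named, with a few genes named in any case. Mhc1uba, mhc1uka, rag2 and chga were named after their values were seen. Sequences and gene lengths were not used here. Some of the listed genes are not reported here.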

Additional observations from a re-analysis of the deposited data

Results flagged for a closer look

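In 23 of 120 sets of 4 libraries (each tested member's CPM and each count ratio, in each group), 1 library stood apart from the other 3 by more of the whole range than Dixon's 95% value of 0.829 allows; chance alone flags about 1 set in 20, and the sets are not independent of one another. In 22 of them, 21 of CPM and 1 of a ratio, the library was MYCN 4 and it was above the others. In the constitutive core, MYCN 4 was at 221 CPM for psma4 (others 127 to 142), 101 CPM for psma6b (others 55.5 to 61.4), 375 CPM for psma8 (others 169.8 to 201), 272 CPM for psmb1 (others 159 to 169.9), 209.8 CPM for psmb2 (others 113 to 124), 233 CPM for psmb4 (others 136 to 148) and 253 CPM for psmb5 (others 191 to 199.5). In the regulatory cap, MYCN 4 was at 111 CPM for psmc1b (others 67.9 to 74.3), 217 CPM for psmc3 (others 116 to 129.5), 297 CPM for psmc4 (others 166 to 175), 299.9 CPM for psmc5 (others 174 to 195), 112 CPM for psmd11b (others 52.3 to 61.6), 248 CPM for psmd13 (others 121 to 133), 118 CPM for psmd4a (others 64.5 to 69.5), 137 CPM for psmd4b (others 83.2 to 90.8) and 181 CPM for psmd6 (others 99.1 to 112). In the other classes, MYCN 4 was at 252 CPM for psme3 (others 119.7 to 124), 38.5 CPM for psmd9 (others 22.4 to 22.7), 72.7 CPM for psmg2 (others 38.1 to 41.4), 76.0 CPM for psmg3 (others 42.6 to 47.7) and 4.20 CPM for psmc3ip (others 1.34 to 1.74). In the myrAKT group psmd6 was at 109 CPM in myrAKT 4, below the 127 to 130.1 CPM of the other myrAKT libraries. The count ratio of psmd11b over psmd11a was 0.905 in MYCN 4, above the 0.646 to 0.677 of the other MYCN libraries.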

How the results depend on the processing

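Upper-quartile factors, RLE size factors, no filter, a filter of CPM of at least 1 in 4 libraries, DESeq2 and limma-voom left the call of each of the 51 tested members, and the direction of each called one, as reported. With library totals 10 members were higher and 8 lower, of which 2 and 3 in the constitutive core and 3 and 0 in the cap; psmd6 turned to 0.38. Scaled on the constitutive core, 10 were higher and 9 lower (2 and 3 in the core, 3 and 0 in the cap), and psmd6 was at 0.36. That fit called 5067 of all genes higher and 3258 lower, and the median of all genes was 0.28. Scaling on dbh and th, a choice known from an earlier account of these data, called 8319 of all genes higher and 1026 lower, and 42 members, all higher, with 13 in the constitutive core, 4 in the immune-type core, 19 in the cap and 2 among assembly factors; 0 members in any class, activators included, were lower. Under it these log2 fold changes turned positive: psma1 1.17, psma2 0.97, psma3 1.11, psma4 1.43, psma5 1.38, psma6a 1.16, psma6b 0.69, psma8 1.42, psmb1 0.97, psmb2 1.14, psmb3 1.24, psmb5 0.51, psmb6 0.61, psmb7 0.90, psmb12 1.33, psmb9a 1.25, psmc1a 1.29, psmc1b 1.27, psmc2 1.08, psmc4 1.12, psmc5 0.95, psmc6 0.99, psmd11a 1.20, psmd11b 1.39, psmd12 1.30, psmd13 0.84, psmd14 1.28, psmd3 1.37, psmd4a 0.96, psmd4b 0.86, psmd6 1.51, psmd7 1.12, psmd8 0.97, psme1 1.42, psmd10 0.66, psmd5 0.20, psmd9 0.73, psmf1 0.68, psmg1 0.0511, psmg2 1.12 and psmg3 0.47. These reversals follow from the scaling itself, which moved the median of all genes to 1.45. With single libraries left out, 5 to 8 members were higher and 16 to 26 lower; 0 to 1 of the constitutive core were higher and 5 to 9 lower; 0 to 2 of the cap were higher, 4 to 10 of the cap lower and 0 to 1 of the immune-type core lower. Of all genes tested, 72.2% (without myrAKT 3) to 80.9% (without MYCN 4) passed in these fits. Of the 24 called members 20 passed without each single library, and all 24 kept their sign. The log2 ratio difference of psmb10 over psmb7 was 1.09 to 1.49 and missed the threshold without any 1 myrAKT library (exact two-sided permutation p = 0.0571), and that of psmd11b over psmd11a was 0.20 to 0.36; with a pseudocount of 5 no ratio changed its call. Replicate numbers showed no pairing of the libraries: same-numbered libraries' deviations correlated at -0.195 to 0.0694, and differently numbered ones' at -0.136 to 0.174. With 4 libraries per group this cannot exclude a pairing. With the replicate block 5 members were higher and 15 lower, and 8816 of all genes passed. For the ratios a block gives the same differences, 1.89 for psmb8a over psmb5, 0.61 for psmb9a over psmb6, 1.27 for psmb10 over psmb7, -0.44 for psma6b over psma6a, 0.90 for psme2 over psme1 and 1.40 for psme1 over psme3, with an exact sign-flip permutation p = 0.125, the smallest that 4 pairs allow. Psmb11b, with 11 counts at most, was too low to test at this depth; why psmd2 is listed at 0 was not tested.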
